A study of Rattus norvegicus with 31 samples.

Results

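This account covers gene expression in blood cells of adult rats whose dams were underfed in early pregnancy, all taken as a single group, against offspring of dams fed normally. Samples were chosen by their titles: PBMC CR (11 samples) and PBMC CR-L (13 samples) formed the restricted group of 24, and PBMC WT (7 samples) formed the controls, so that all 31 samples of the series were used. The dams came from 16 mated rats, and restriction was by 20% of calories from day 1 to day 12 of pregnancy. CR offspring were suckled as usual. CR-L offspring also received leptin until postnatal day 21, in daily doses from 1.0 to 43.8 ng set at 5 times the intake from milk. WT offspring had unrestricted dams and normal suckling. Male and female offspring of every group then ate chow freely for 4 months before blood was drawn. Pooling the CR and CR-L samples asks what the restriction left in adult blood whether or not leptin was given. The labels assign no litter and no sex to a sample, and 31 samples came from at most 16 litters, so some may share a dam and the p-values may be too small.

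Peripheral blood mononuclear cells (PBMC) are the lymphocytes and monocytes of blood. NF-kB is a family of transcription factors held in the cytoplasm by inhibitor proteins until a receptor signals through adaptors and kinases that destroy the inhibitor. The genes of several inhibitors, of chemokines and of adhesion molecules are themselves switched on by NF-kB, so that their transcripts serve as a readout of recent activation. Cytosolic chaperones fold new or damaged proteins, and many are induced by heat shock factor. Insulin signalling passes through adaptor proteins such as Irs2 to kinases that keep Foxo transcription factors out of the nucleus.

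Each sample was hybridised in red against the same green reference pool, made from 5 samples of each group, on 1 Agilent 2-colour array. Values are log2 ratios of sample over pool, and a difference is the restricted mean minus the WT mean on that log2 scale, with ± SE. T cell, B cell and NK cell marker genes were well above background on all 31 arrays, except that Cd79a, Pax5, Spib, Tcf7, Eomes and Fasl were not among the features tested. Median red intensity lay between 69.8 and 93.9 on the restricted arrays and between 77 and 88.8 on 6 WT arrays, and was 235 on WT replicate 6. The group means did not differ in an exact permutation test (two-sided, 104.6 ± 57.9 SD, n = 7, against 82.6 ± 5.46 SD, n = 24, p = 0.106; 0.937 without WT replicate 6). The percent of red spots well above background averaged 65.1 ± 8.53 (SD, n = 7) in WT and 61.6 ± 1.78 (SD, n = 24) in restricted samples (two-sided exact permutation p = 0.0723). That p was 0.0286, 0.0366 and 0.0417 without WT replicate 2, 3 or 7, and 0.634 without WT replicate 6.

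Of 22262 features tested (a gene, or a probe with no gene name), 951 passed an adjusted p of 0.05 in limma, which is 4.27% of them. Higher in restricted offspring were 517 (2.32%) and lower 434 (1.95%). The differences were small: the median size was 0.25 for those that rose and -0.25 for those that fell, 30 exceeded 0.5 in size and 1 exceeded 1. Of the 951, 590 had an established gene symbol (347 higher, 243 lower). The count depended on single WT arrays: it was 486 without WT replicate 4, 554 without WT replicate 2 and 603 without WT replicate 5, and at most 1106 over the 31 arrays left out in turn. In the deposited series table it was 504.

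**Figure D1:**
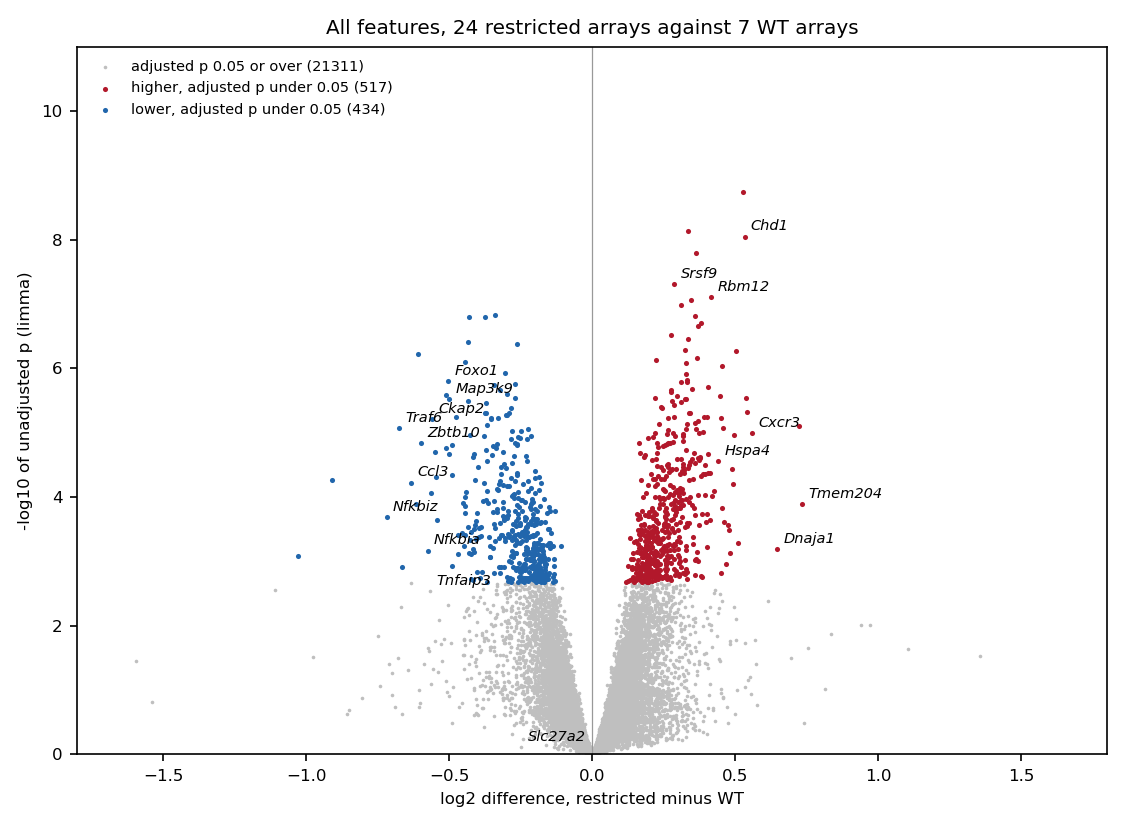
Each point is 1 of 22262 features, with the log2 difference (restricted minus WT) on the horizontal axis and -log10 of limma's unadjusted p on the vertical axis. The 517 features that rose and the 434 that fell past an adjusted p of 0.05 are coloured and the rest are grey; most coloured points lie within 0.5 of 0, and Chd1 stands high on the right.

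Several genes of the NF-kB system fell, and 4 of them, Nfkbiz, Traf6, Birc3 and Nfkbia, were among the 15 largest decreases with an established symbol. Of 9 measured members of a list of NF-kB inhibitors and Bcl3 relatives, 4 fell (44.4%, against 1.95% of all features) and none rose. The list's median difference was -0.34, against 0.01 for all features. Nfkbiz, a nuclear inhibitor-like protein that modulates NF-kB target genes (probe at chr11:45810786-45810845 on rat build rn4), had log2 ratios of 0.27 to 0.97 (median 0.51) in WT samples and -1.46 to 0.52 (median -0.14) in restricted samples. In 18 of the 24 restricted samples it lay below every WT sample. It fell by 0.72 ± 0.17, or 1.64-fold (adjusted p = 0.0129). A second Nfkbiz probe, well above background on all arrays, differed by -0.22 (adjusted p = 0.345), and the mean over both probes fell by 0.47 (adjusted p = 0.036). Nfkbia, the classical inhibitor that binds NF-kB in the cytoplasm, was 0.11 to 0.68 (median 0.41) in WT and -1.01 to 0.51 (median -0.13) in restricted samples, with 16 of 24 below the WT range. Its fall of 0.57 ± 0.15 had an adjusted p of 0.0254, which rose to as much as 0.0746 without WT replicate 2, 4 or 6. Bcl3, which acts on NF-kB dimers in the nucleus, fell by 0.45 ± 0.12 (adjusted p = 0.0231), and a call was not made without WT replicate 2, 4, 5 or 6 (up to 0.0891). Nfkbie, another cytoplasmic inhibitor, fell by 0.34 ± 0.08 (adjusted p = 0.0147; 0.0557 without WT replicate 4). Tnfaip3, an enzyme that ends NF-kB signalling, had a difference of the same size (-0.57 ± 0.18) that did not pass (adjusted p = 0.0611). The list's count of 4 became 1 without WT replicate 4 and 2 without WT replicate 2 or 6, while its median stayed between -0.38 and -0.31 over the arrays left out in turn.

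The sequence before the start of these genes is shown because these genes fell; the 4 were chosen for holding a match. It was taken from RefSeq promoters on GRCr8, as the 250 bases before the start, read 5′ to 3′ on the gene's strand. Capitals mark matches to the NF-kB pattern GGNNTTTCC on either strand. The positions are chr6:78597073-78597322 (minus) for Nfkbia, chr11:58251471-58251720 (plus) for Nfkbiz, chr1:88613556-88613805 (minus) for Bcl3 and chr8:27829595-27829844 (plus) for Icam1, an adhesion molecule described next.
Nfkbia: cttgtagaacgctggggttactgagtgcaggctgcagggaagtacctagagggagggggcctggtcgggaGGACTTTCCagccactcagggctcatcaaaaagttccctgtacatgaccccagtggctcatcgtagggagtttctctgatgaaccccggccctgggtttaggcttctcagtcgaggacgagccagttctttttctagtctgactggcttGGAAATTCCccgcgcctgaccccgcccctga
Nfkbiz: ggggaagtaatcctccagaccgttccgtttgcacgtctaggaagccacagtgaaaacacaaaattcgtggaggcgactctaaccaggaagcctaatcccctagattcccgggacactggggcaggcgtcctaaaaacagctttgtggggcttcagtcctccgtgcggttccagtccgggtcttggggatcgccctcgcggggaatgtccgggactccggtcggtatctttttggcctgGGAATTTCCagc
Bcl3: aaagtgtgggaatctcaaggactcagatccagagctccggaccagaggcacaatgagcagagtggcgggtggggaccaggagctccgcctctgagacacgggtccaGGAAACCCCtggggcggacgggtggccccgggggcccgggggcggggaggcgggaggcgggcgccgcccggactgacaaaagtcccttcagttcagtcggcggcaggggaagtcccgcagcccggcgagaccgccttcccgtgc
Icam1: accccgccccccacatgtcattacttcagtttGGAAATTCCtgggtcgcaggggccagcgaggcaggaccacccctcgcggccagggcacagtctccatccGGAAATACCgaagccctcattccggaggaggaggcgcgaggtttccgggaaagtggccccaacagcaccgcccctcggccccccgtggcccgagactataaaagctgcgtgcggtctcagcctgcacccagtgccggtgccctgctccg
Nfkbia has 2 matches, beginning 180 and 31 bases before its start, and Icam1 has 2, at 218 and 149 bases. Nfkbiz has 1 match 12 bases before its start and Bcl3 has 1 at 144 bases. The pattern was found in 5.18% of 27457 promoters of the same length and in 5.35% of the 9597 promoters of genes measured here. It was in 4 of the 8 promoters of the inhibitor list (50%), those of Nfkbia, Nfkbiz, Bcl3 and Tnfaip3. It was also in 5 of 12 promoters of the chemokine and cytokine list (41.7%), those of Cxcl1, Cxcl2, Cxcl10, Il1rn and Ltb, none of which passed, and in 1 of 13 of the adaptor list (7.69%). Of all genes that fell it was in 13 of 208 (6.25%), and of all that rose in 14 of 291 (4.81%). A match describes the letters alone, and the promoters of Nfkbie, Tnf and Ccrl2 held none in this window. Traf6, Birc3 and Ccl3 had no promoter in the set used and were not searched. The shares of each list count only measured members with a promoter in that set.

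**Figure D2:**
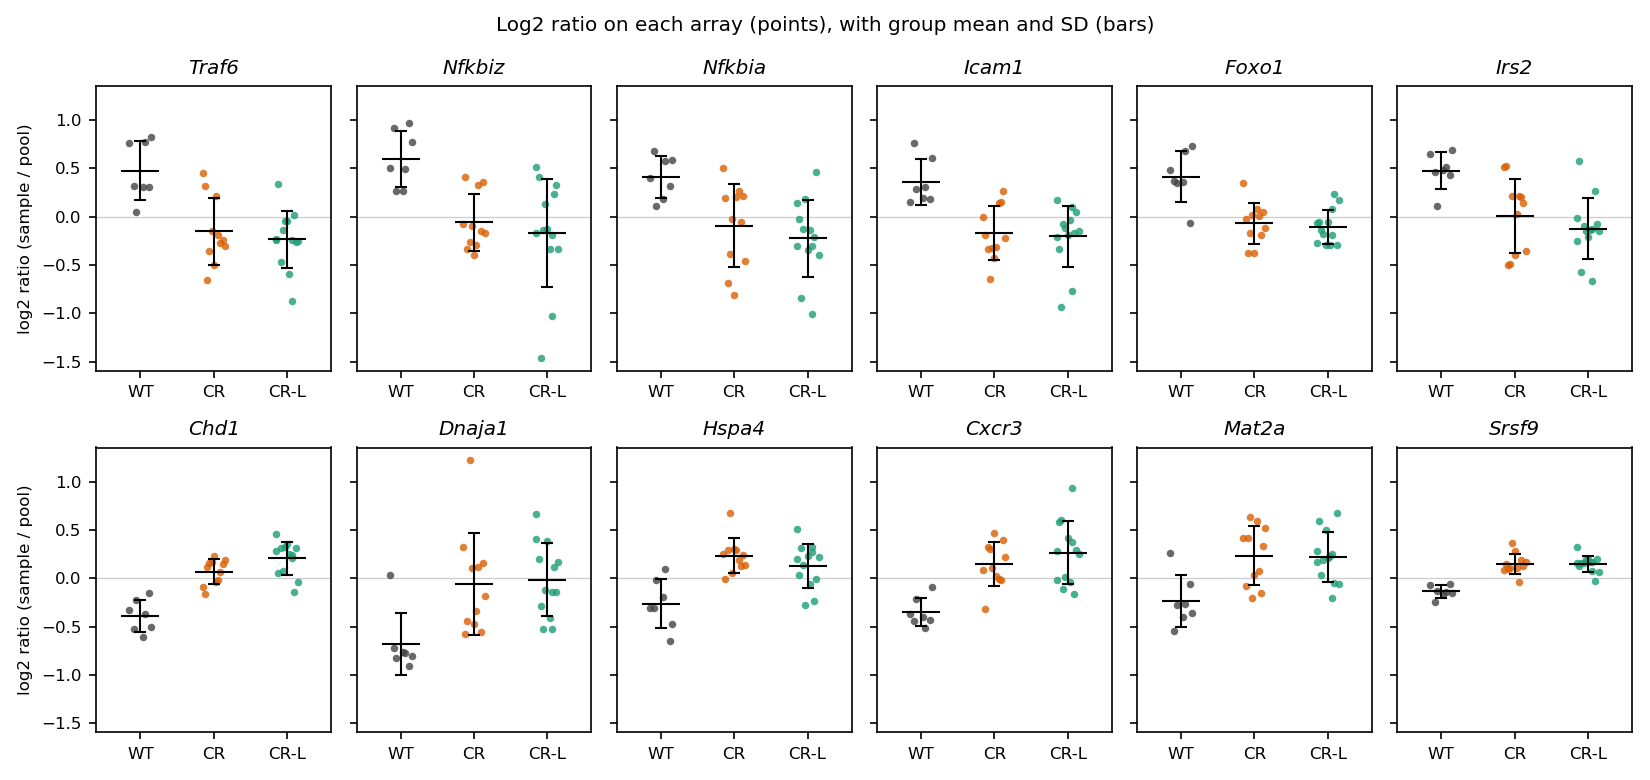
Log2 ratio over the pool (vertical axis) of 12 genes on each of the 31 arrays, in WT, CR and CR-L samples; points are arrays and bars the group mean with SD. The panels for Traf6, Nfkbiz, Nfkbia, Icam1, Foxo1 and Irs2 show lower CR and CR-L means, and those for Chd1, Dnaja1, Hspa4, Cxcr3, Mat2a and Srsf9 higher ones; in Srsf9 every restricted sample lies above every WT sample.

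Among adaptors and kinases upstream of NF-kB, 3 of 17 measured members fell and 1 rose (23.5% passed, against 4.27% of all features). Traf6, the ubiquitin ligase that relays Toll-like and interleukin-1 receptor signals (probe at chr3:86846359-86846418, rn4), ranged from 0.04 to 0.83 (median 0.32) in WT and from -0.87 to 0.45 (median -0.24) in restricted samples. It fell by 0.67 ± 0.13, or 1.6-fold (adjusted p = 0.0023), with 20 of 24 restricted samples below the WT range. Birc3, a ubiquitin ligase of the TNF receptor complex, ranged from -0.06 to 0.59 (median 0.36) in WT and from -0.90 to 0.40 (median -0.28) in restricted samples. It fell by 0.61 ± 0.14 (adjusted p = 0.00989). Both calls held with every array left out in turn. Ikbkg, the regulatory subunit of the kinase complex, fell by 0.17 ± 0.05 (adjusted p = 0.0434), a call that ended without any 1 of 16 arrays (up to 0.131). Traf1 rose by 0.40 ± 0.11 (adjusted p = 0.0235), and the call ended without WT replicate 2, 4 or 5 (up to 0.0706). The other members measured, among them Traf2, Traf3, Ikbkb, Chuk and Map3k7, did not pass, with differences from -0.10 for Traf2 to 0.17 for Traf5. Of the NF-kB factors themselves, Rela (-0.13 ± 0.07, adjusted p = 0.349), Nfkb2 (-0.08) and Nfkb1 (0.05 ± 0.04, adjusted p = 0.557) did not pass. Ticam1, the adaptor of Toll-like receptor 3, was the only 1 of 15 Toll-like receptor list members to pass (6.67%, against 4.27% of all features). It rose by 0.40 ± 0.10 (adjusted p = 0.0142, and 0.0504 without WT replicate 5).

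Of 21 measured chemokines and cytokines 2 fell (9.52%, against 1.95% of all features) and none rose, and the list's median was -0.14. Ccl3, a chemokine that recruits monocytes and T cells, ranged from -0.01 to 0.71 (median 0.60) in WT and from -1.052 to 0.49 (median -0.10) in restricted samples. It fell by 0.63 ± 0.14 (adjusted p = 0.00629), and all 24 restricted samples lay below the WT median. Tnf, the inflammatory cytokine, fell by 0.20 ± 0.06 with an adjusted p of 0.0496, and that call ended without any 1 of 25 arrays (up to 0.181); its probe was well above background on 28 arrays. Il1b and Cxcl10 had differences as large as Ccl3's (-0.71 and -0.68) that did not pass (adjusted p = 0.257 and 0.227). Ccrl2, a receptor that binds chemerin without signalling, fell by 0.66 ± 0.19 (adjusted p = 0.0359; up to 0.108 without WT replicate 2, 3, 4, 6 or 7). Icam1, the ligand of leukocyte integrins, ranged from 0.15 to 0.77 (median 0.29) in WT and from -0.93 to 0.26 (median -0.18) in restricted samples, 21 of them below the WT range. It fell by 0.55 ± 0.12 (adjusted p = 0.00549).

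Cxcr3, the receptor of interferon-induced chemokines on activated T and NK cells, moved the other way. It ranged from -0.51 to -0.09 (median -0.40) in WT and from -0.32 to 0.94 (median 0.24) in restricted samples, and 21 of the 24 lay above the WT range. It rose by 0.56 ± 0.11, or 1.47-fold (adjusted p = 0.00243). Cxcr3 and Icam1 were the only members of the receptor and adhesion list of 22 to pass (9.09%, against 4.27% of all features).

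Of 30 immediate early and activation genes measured, 4 were above 0 (13.3%, against 54.3% of all features) and 26 below, and the median difference was -0.14. The 1 that fell (3.33%, against 1.95% of all features) was Fosl1, a partner of Jun, with a probe well above background on 29 arrays. Its difference was -0.44 ± 0.11 (adjusted p = 0.0184, and up to 0.0615 without WT replicate 1 or 4). Gadd45b (-0.63, adjusted p = 0.0503), Cd69 (-0.50, adjusted p = 0.0819) and Dusp2 (-0.61, adjusted p = 0.411) were among those that did not pass. The mean over this list ran from -0.10 to 0.36 on the 7 WT arrays and from -0.63 to 0.39 on the 24 restricted arrays, so the ranges overlapped. A range widens with the number of arrays, and a difference in spread was not tested. The interferon response list had 24 of 33 members below 0 (45.7% of all features lay below 0), a median of -0.07 and none that passed. Irf1, an interferon-induced factor, was -0.27 ± 0.09 (adjusted p = 0.109) and Oasl -0.28 ± 0.09 (adjusted p = 0.0829).

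Markers of the blood cell types were set beside these groups. No marker of any of the 7 lists passed. Of all features 54.3% lay above 0 and 45.7% below. Monocyte markers were below 0 in 11 of 12 members (median -0.13), with list means from -0.07 to 0.35 on WT and from -0.52 to 0.35 on restricted arrays. B cell markers were below 0 in 12 of 13 (median -0.16; list means -0.73 to 0.28 on WT and -0.93 to 0.38 on restricted arrays), and granulocyte markers in 10 of 12 (median -0.30; -0.37 to 0.85 and -0.78 to 0.99). T cell markers were above 0 in 14 of 17 (median 0.05; -0.20 to 0.18 and -0.19 to 0.29) and NK and cytotoxic markers in 10 of 11 (median 0.13; -0.32 to 0.21 and -0.61 to 0.42). Platelet markers were above 0 in all 12 measured (median 0.19; -1.55 to 0.24 and -3.14 to 0.79), and erythroid markers in 12 of 16 (median 0.12; -0.90 to -0.000888 and -1.66 to 1.23). In every list the group ranges overlapped. Over 48 other settings and left-out arrays, the list median turned sign in 2 for platelets, 2 for erythroid cells and 1 for monocytes, and in none for the other lists of cell types. Nearest to the threshold were the T cell genes Trat1 (0.24 ± 0.07, adjusted p = 0.0504) and Cd5 (0.27 ± 0.08, adjusted p = 0.0516), while Fcer2, the IgE receptor of B cells, was at -0.45 ± 0.18 (adjusted p = 0.162). Fewer cells of a type and less RNA per cell cannot be told apart in such samples. With the T cell, B cell, monocyte, platelet and erythroid means of each array as covariates, 901 features passed. Traf6 (-0.65), Nfkbiz (-0.58), Birc3 (-0.45), Ccl3 (-0.47) and Icam1 (-0.45) were among them, Nfkbia (-0.51, adjusted p = 0.0529) and Ccrl2 (-0.51, adjusted p = 0.0789) were not, and the inhibitor list had 3 members that fell. The part of granulocyte and NK cell markers in these results was not tested.

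MHC class II genes, which present antigen on B cells and monocytes, were below 0 in 8 of 9 measured members (median -0.31) and none passed. Of all features 45.7% lay below 0. The spread of the class II genes was wide in both groups: list means ran from -1.31 to 0.58 on WT and from -1.21 to 0.53 on restricted arrays. RT1-DOb had the smallest p of the class II genes other than their regulator Ciita and differed by -0.42 ± 0.22 (adjusted p = 0.329), against 0.17 ± 0.09 for Ciita (adjusted p = 0.31).

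Some cytosolic chaperones rose in restricted offspring. Of 30 measured, 6 rose (20%, against 2.32% of all features) and none fell. Above 0 lay 23 (76.7%, against 54.3% of all features), and the median difference was 0.21. An unadjusted p under 0.05 was found for 16 of the 30, and for 17.3% of all features. Dnaja1, a co-chaperone that hands substrates to Hsp70, ranged from -0.91 to 0.04 (median -0.77) in WT and from -0.58 to 1.22 (median -0.13) in restricted samples. Of the WT samples, replicate 1 alone was above -0.72, and it overlapped the restricted samples, 11 of which lay above all of WT. Dnaja1 rose by 0.65 ± 0.17, or 1.56-fold (adjusted p = 0.0247), and its second probe rose by 0.62 (adjusted p = 0.0169). The call ended without any 1 of WT replicates 2 to 7 (up to 0.0676). Hspa4, a nucleotide exchange factor of Hsp70, ranged from -0.65 to 0.09 (median -0.30) in WT and from -0.27 to 0.68 (median 0.21) in restricted samples, and rose by 0.44 ± 0.09 (adjusted p = 0.00398). Its other probe, elsewhere in the gene's region, differed by -0.03 (adjusted p = 0.849), and the mean of both probes by 0.20 (adjusted p = 0.0808), so the rise rests on 1 probe.

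Hspa14, an Hsp70 relative that works at the ribosome, ranged from -0.47 to -0.12 (median -0.31) in WT and from -0.24 to 0.14 (median -0.04) in restricted samples, 22 of which were above the WT range. It rose by 0.28 ± 0.05 (adjusted p = 0.00128). Tcp1 and Cct3, subunits of the ring-shaped chaperonin that folds actin and tubulin, rose by 0.25 ± 0.05 (adjusted p = 0.00724) and 0.23 ± 0.06 (adjusted p = 0.0313). The Cct3 call ended without any 1 of WT replicates 2 to 6 (up to 0.112) and as the mean over its probes (0.17, adjusted p = 0.194), since the second probe differed by 0.12 (adjusted p = 0.682). The chaperonin did not rise as a whole: Cct2, Cct4, Cct5 and Cct7 lay between -0.11 and -0.00 and Cct6a and Cct8 at 0.07 and 0.15, none past the threshold. Dnajb1, the main stress-induced co-chaperone, rose by 0.36 ± 0.10 (adjusted p = 0.0302; up to 0.101 without WT replicate 2, 3, 5 or 7). Hsph1 (0.50), Hspa1b (0.48), Hspa8 (0.45), Stip1 (0.39) and Hsp90aa1 (0.22), other genes of the heat shock response, did not pass (adjusted p from 0.0648 to 0.444). Hsf1, the heat shock factor, was at -0.02. The count of 6 was 3 without WT replicate 2, 3 or 5 and 12 without WT replicate 1, and 3 both in the red channel alone and with blood cell marker means as covariates.

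A short pattern from the heat shock element, GAANNTTC, was looked for in the same way. It reads the same on both strands, is only a part of the element, and a match describes the letters alone. The promoters of Dnajb1 (chr19:41431142-41431391, minus) and Dnaja1 (chr5:60638154-60638403, plus) each hold 1 match, shown in capitals, 11 and 181 bases before the start (RefSeq, GRCr8).
Dnajb1: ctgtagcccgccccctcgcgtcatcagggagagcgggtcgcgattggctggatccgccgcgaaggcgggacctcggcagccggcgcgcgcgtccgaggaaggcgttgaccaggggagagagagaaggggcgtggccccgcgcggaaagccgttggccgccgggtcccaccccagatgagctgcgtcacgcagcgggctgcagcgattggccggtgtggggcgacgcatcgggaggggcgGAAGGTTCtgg
Dnaja1: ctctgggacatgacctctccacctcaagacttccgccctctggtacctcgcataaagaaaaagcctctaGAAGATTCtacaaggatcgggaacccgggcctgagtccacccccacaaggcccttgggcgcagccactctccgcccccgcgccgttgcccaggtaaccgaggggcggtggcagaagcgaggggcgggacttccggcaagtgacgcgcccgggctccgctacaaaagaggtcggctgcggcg
It was present in 9 of 25 chaperone promoters (36%), against 7.02% of all 27457 promoters and 5.05% of those of genes measured here. Hspa4, Hspa14, Tcp1 and Cct3, which also rose, held none in the 250 bases. The other promoters with a match were those of Hsph1, Hspa8, Hspb1, Hspe1, Hspd1, Dnajb6 and Bag3, which did not pass. Of all genes that rose 17 of 291 promoters held it (5.84%), and of those that fell 10 of 208 (4.81%). Matches of the heat shock and NF-kB patterns cannot overlap, because their fixed letters clash at every offset.

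In the endoplasmic reticulum, 1 of 22 chaperones and stress genes rose (4.55%, against 2.32% of all features) and the list's median was 0.00. That gene was Pdia4, which forms disulphide bonds in new proteins: WT samples lay between -0.52 and -0.09 (median -0.32) and restricted samples between -0.22 and 0.42 (median 0.09), and it rose by 0.38 ± 0.08 (adjusted p = 0.00373).

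**Figure D3:**
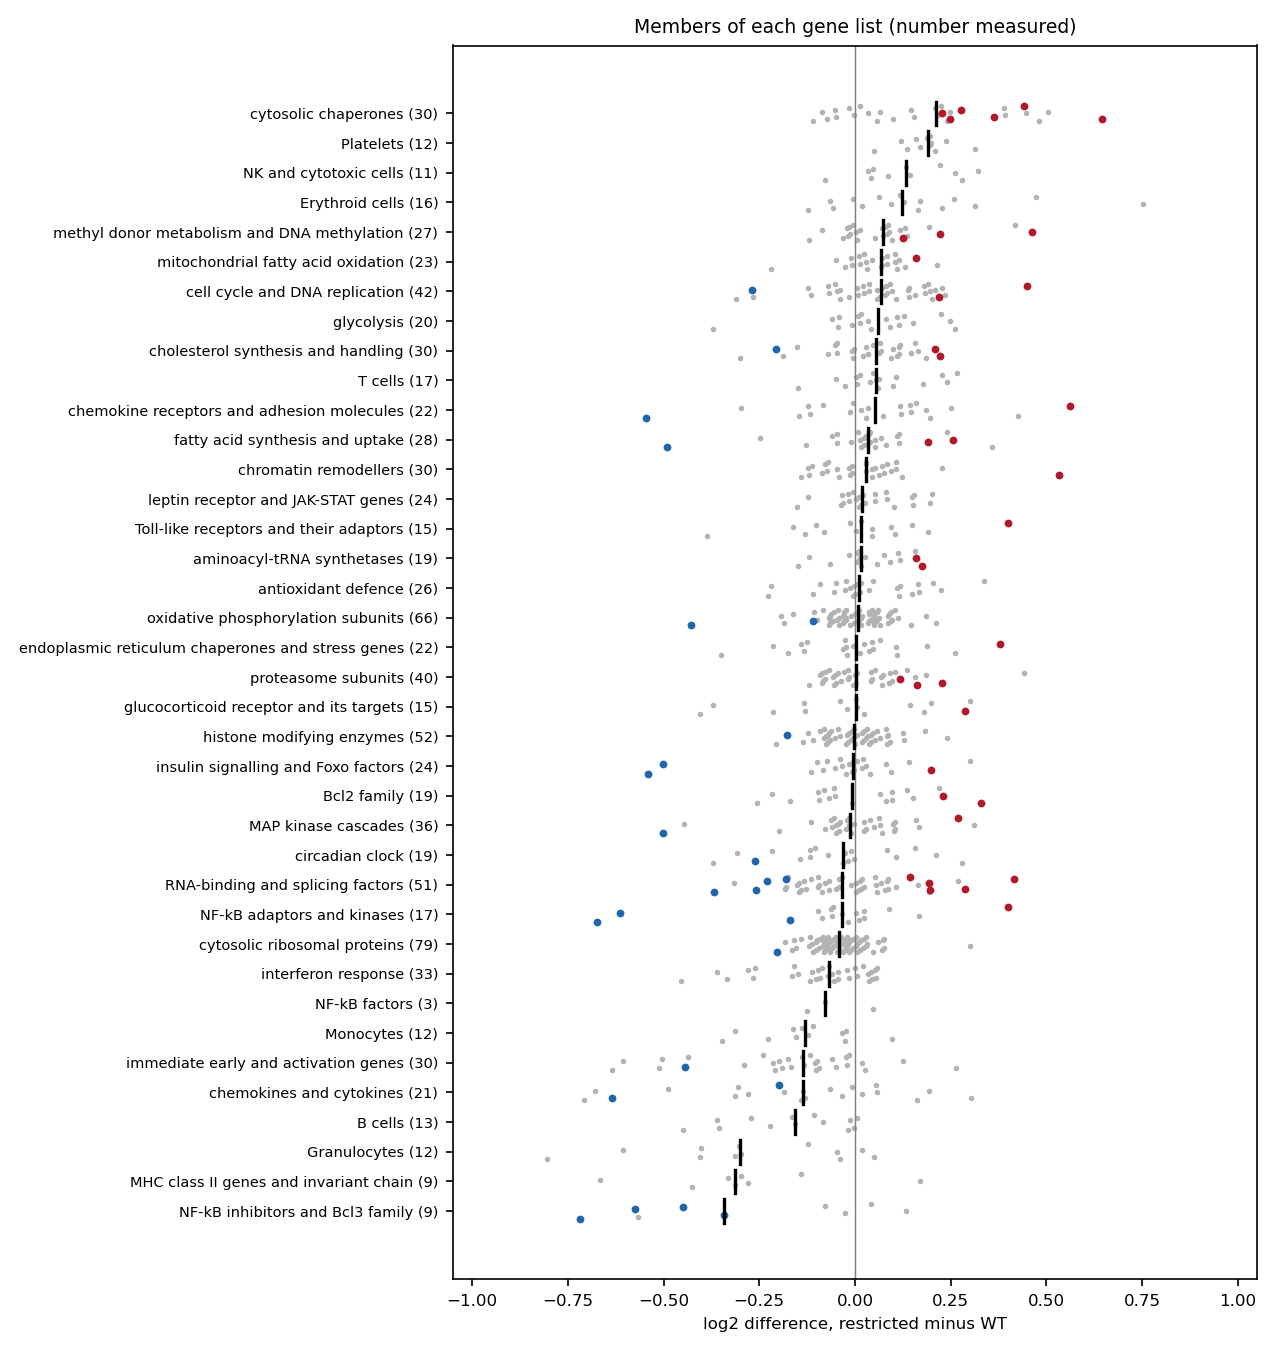
Log2 difference (restricted minus WT, horizontal axis) of every measured member of 38 gene lists, 1 row per list with the number measured; red and blue points passed an adjusted p of 0.05, grey points did not, and the black bar is the list's median. The NF-kB inhibitors and chaperones have the medians of -0.34 and 0.21 described above. Lists with no member past the threshold had medians of like size: MHC class II genes (-0.31), granulocytes (-0.30) and platelets (0.19). Most other medians lie nearer to 0, and 2 members, RT1-Bb at -1.54 and Ldhb at 1.36, lie beyond the axis.

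Of 24 measured insulin signalling genes 3 passed (12.5%, against 4.27% of all features), and the list's median was -0.01. Foxo1, the transcription factor that insulin restrains (probe at chr2:141201740-141201799, rn4), ranged from -0.06 to 0.74 (median 0.37) in WT and from -0.38 to 0.35 (median -0.09) in restricted samples, and each of the 24 lay below the WT median. It fell by 0.50 ± 0.09, or 1.42-fold (adjusted p = 0.00114). Irs2, the adaptor of the insulin receptor, ranged from 0.11 to 0.69 (median 0.48) in WT and from -0.67 to 0.58 (median -0.11) in restricted samples. It fell by 0.54 ± 0.13, or 1.46-fold (adjusted p = 0.0135). Both calls held with every array left out in turn. None of the 4 other Irs2 probes passed, and the mean over its probes fell by 0.19 (adjusted p = 0.0464). Pdpk1, the kinase that activates Akt, rose by 0.20 ± 0.06 (adjusted p = 0.0372), a call that ended without WT replicate 2, 3, 4, 5 or 6, CR replicate 8 or CR-L replicate 12 (up to 0.133). Its second probe differed by 0.01 (adjusted p = 0.927), and the mean over both by 0.11 (adjusted p = 0.196). The insulin receptor gene Insr (-0.02 ± 0.07), Akt1 (0.02), Akt2 (0.01), Mtor (-0.03) and Foxo3 (0.14) did not pass.

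The leptin receptor and JAK-STAT list had no member past the threshold among 24 measured, and its median was 0.02. Lepr was not among the features tested. Stat3, the factor that the leptin receptor activates, was 0.15 ± 0.05 (adjusted p = 0.089), Stat5a 0.15 ± 0.06 (adjusted p = 0.164), and Socs3, the feedback inhibitor of leptin signalling, -0.15 ± 0.17 (adjusted p = 0.722).

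Of the lipid genes few passed. Fasn, which makes palmitate, ranged from -0.40 to 0.01 (median -0.25) in WT and from -0.35 to 0.36 (median 0.02) in restricted samples. It rose by 0.25 ± 0.06 (adjusted p = 0.0114), but not with blood cell marker means as covariates (0.20, adjusted p = 0.052). A second Fasn probe differed by 0.15 (adjusted p = 0.18), and the mean over both rose by 0.20 (adjusted p = 0.0437). The fatty acid synthesis and uptake list held 2 genes that rose and 1 that fell of 28, with 21 above 0 (75%) and a median of 0.03. Slc27a4, a fatty acid transporter, rose by 0.19 ± 0.06 (adjusted p = 0.0474; the call ended without any 1 of 21 arrays, up to 0.156). Fabp5, a carrier of fatty acids in the cell, fell by 0.49 ± 0.14 (adjusted p = 0.0359; up to 0.13 without any 1 of 6 WT arrays, all but WT replicate 3). Srebf1, the regulator of Fasn, was at -0.01 ± 0.06. Slc27a2, an acyl-CoA synthetase and transporter, varied from -4.06 to 1.83 over the restricted samples and from -3.95 to 0.53 in WT, a spread far above its group difference of -0.25 ± 0.84 (adjusted p = 0.926).

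Ldaf1, a protein of the sites where lipid droplets form, fell by 0.56 ± 0.13 (adjusted p = 0.00785), and Cptp, a transporter of ceramide phosphate, rose by 0.50 ± 0.10 (adjusted p = 0.00245). The second Cptp probe differed by 0.10 (adjusted p = 0.361), and the mean over both rose by 0.30 (adjusted p = 0.00674). In mitochondrial fatty acid oxidation 1 of 23 measured genes rose (4.35%, against 2.32% of all features), and 18 lay above 0 (78.3%, against 54.3%, median 0.07). It was Hadha (0.16 ± 0.04, adjusted p = 0.0134, and up to 0.0561 without WT replicate 4 or 5). The other Hadha probes differed by -0.03 and 0.04, and the mean over probes by 0.06 (adjusted p = 0.261). Cpt1a, which admits fatty acids to mitochondria, was at 0.07 ± 0.09 (adjusted p = 0.773). Of 30 cholesterol genes 10% passed, against 4.27% of all features. Insig2, which retains the sterol sensor (0.22 ± 0.06, adjusted p = 0.0262), and Dhcr7, the last enzyme of synthesis (0.21 ± 0.06, adjusted p = 0.0481), rose, and Abcg1, a cholesterol exporter, fell (-0.21 ± 0.06, adjusted p = 0.0344). The Insig2 call ended without WT replicate 2, 5, 6 or 7 (up to 0.0999) and as the mean over its probes (0.07, adjusted p = 0.442; the others differed by 0.11 and -0.11), the Dhcr7 call without any 1 of 21 arrays (up to 0.164) and the Abcg1 call without WT replicate 2, 4, 5 or 6 (up to 0.127). No glycolysis gene of 20 passed; Pfkm was 0.25 ± 0.08 (adjusted p = 0.093) and Pfkl 0.13 ± 0.05 (adjusted p = 0.159). In oxidative phosphorylation 2 of 66 passed (3.03%, against 4.27% of all features), and both fell. They were Cox7c of cytochrome oxidase (-0.43 ± 0.08, adjusted p = 0.00245) and Ndufs6 of complex I (-0.11 ± 0.03, adjusted p = 0.0234, up to 0.0629 without WT replicate 4 or 5). The second Cox7c probe differed by 0.03 (adjusted p = 0.86).

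Genes of methyl group supply and chromatin included the smallest p of any named gene. Chd1, a remodeller that spaces nucleosomes at active genes, ranged from -0.61 to -0.16 (median -0.37) in WT and from -0.16 to 0.45 (median 0.16) in restricted samples. All but 1 of the 24 lay above the WT range. It rose by 0.53 ± 0.07, or 1.45-fold (adjusted p = 6.6e-05). Of its 2 other probes 1 rose (0.26, adjusted p = 0.00081) and 1 did not differ measurably (-0.06, adjusted p = 0.74). No other chromatin remodeller of 30 passed (3.33% with Chd1, against 4.27% of all features). Of 52 histone modifying enzymes only Kat5, an acetyltransferase, passed (1.92%, against 4.27%). Its difference was -0.18 ± 0.05 (adjusted p = 0.0245, and up to 0.0974 without WT replicate 4 or 6).

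Mat2a makes S-adenosylmethionine, the methyl donor of the cell. It ranged from -0.55 to 0.27 (median -0.28) in WT and from -0.20 to 0.68 (median 0.22) in restricted samples, all 24 of which lay above the WT median. It rose by 0.46 ± 0.11, or 1.38-fold (adjusted p = 0.0142, and 0.0516 without WT replicate 6). A second Mat2a probe differed by 0.31 (adjusted p = 0.111), and the mean over both rose by 0.38 (adjusted p = 0.0389). Ahcyl1, a relative of the enzyme that clears the spent donor, rose by 0.22 ± 0.05 (adjusted p = 0.00861), and Tdg, which excises oxidised methylcytosine, by 0.12 ± 0.04 (adjusted p = 0.0481; the call ended without any 1 of 19 arrays, up to 0.164). The second probe of Tdg fell by 0.23 (adjusted p = 0.0276), 1 of the 4 other probes of Ahcyl1 lay below 0, and neither gene passed as the mean over its probes. These 3 genes were the only ones of 27 in the methyl donor and DNA methylation list to pass (11.1%, against 4.27% of all features). Without WT replicate 6 only 1 did. Dnmt1 (0.01), Dnmt3a (-0.09) and Tet2 (-0.12) did not pass.

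RNA-binding and splicing factors changed in both directions, 5 higher and 4 lower of 51 (17.6%, against 4.27% of all features), with a median of -0.03. Srsf9, a splicing factor rich in serine and arginine (probe at chr12:42546591-42546650, rn4), was between -0.25 and -0.06 (median -0.14) in WT and between -0.04 and 0.37 (median 0.16) in restricted samples, with no overlap. It rose by 0.29 ± 0.04, or 1.22-fold (adjusted p = 0.000217). Rbm12 ranged from -0.38 to -0.09 (median -0.22) in WT and from -0.16 to 0.42 (median 0.22) in restricted samples and rose by 0.42 ± 0.06 (adjusted p = 0.000275), as both of its other probes did. Rbm10, a regulator of exon choice, rose by 0.19 ± 0.05 (adjusted p = 0.0124). Rbm39, a partner of spliceosome components, fell by 0.37 ± 0.07 (adjusted p = 0.00214). Of its 2 other probes 1 fell (-0.25, adjusted p = 0.0287) and 1 was at -0.04 (adjusted p = 0.793), and the mean over probes fell by 0.22 (adjusted p = 0.0107). Srsf3 fell by 0.26 ± 0.06 (adjusted p = 0.00866) and Clk1, a kinase that phosphorylates such factors, by 0.23 ± 0.05 (adjusted p = 0.00364). Their second probes differed by -0.17 (adjusted p = 0.0831) and -0.19 (adjusted p = 0.112). The means over probes passed for both (adjusted p = 0.0192 and 0.00843). For Srsf3, 23 of 24 restricted samples lay below the WT range. Counts with an array left out were 3 to 6 higher and 3 to 5 lower.

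Of 19 aminoacyl-tRNA synthetases, which load amino acids onto tRNA, Eprs1 (0.17 ± 0.04, adjusted p = 0.0114) and Mars1 (0.16 ± 0.04, adjusted p = 0.0167) rose (10.5%, against 2.32% of all features). Both were short of the threshold without WT replicate 2 (0.0515 and 0.057). The second Mars1 probe differed by 0.02 (adjusted p = 0.915), and the mean over both by 0.09 (adjusted p = 0.184). Of 40 proteasome subunits, Psma5 (0.23 ± 0.07, adjusted p = 0.0415), Psme3 (0.16 ± 0.05, adjusted p = 0.036) and Psmb5 (0.12 ± 0.04, adjusted p = 0.0498) rose (7.5%, against 2.32% of all features). None of the 3 passed without WT replicate 4, and the list's median was 0.00. Ribosomal proteins lay below 0 in 60 of 79 members (45.7% of all features did), with a median of -0.04. Of the 79, 1 fell (1.27%, against 1.95% of all features). It was Rpl21 (-0.20 ± 0.05, adjusted p = 0.0149, 0.0572 without WT replicate 2 and 0.0842 as the mean over its probes). Of its 6 other probes, those on chromosome 12 differed by -0.21 to -0.18 and each passed (adjusted p from 0.0223 to 0.0487). The 2 with the opposite sign (0.02 and 0.08, neither past the threshold) were dimmer and lie on chromosome 4.

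Of 42 cell cycle genes 30 lay above 0 (71.4%, against 54.3% of all features) and the median was 0.07. An unadjusted p under 0.05 was found for 10 of the 42, and for 17.3% of all features. Past the threshold were 7.14%, against 4.27% of all features. Ccnd1, cyclin D1 (0.45 ± 0.13, adjusted p = 0.0417), and Bub1, a mitotic checkpoint kinase (0.22 ± 0.07, adjusted p = 0.0472), rose and Mcm6, of the replication helicase, fell (-0.27 ± 0.06, adjusted p = 0.00606). The Ccnd1 call ended without any 1 of 13 arrays (up to 0.108) and the Bub1 call without any 1 of 24 (up to 0.165). Outside that list, Ckap2, which binds spindle microtubules, fell by 0.56 ± 0.10 (adjusted p = 0.00185) and Cenpk, a centromere protein, by 0.55 ± 0.11 (adjusted p = 0.00343), and both calls held with every array left out in turn. Of 36 MAP kinase cascade genes 5.56% passed, against 4.27% of all features. Map3k9 fell by 0.50 ± 0.09 (adjusted p = 0.00138), with WT samples from 0.24 to 0.49 and 23 of 24 restricted samples below them. The second Map3k9 probe differed by -0.10 (adjusted p = 0.55), and the mean over both fell by 0.30 (adjusted p = 0.0183). Map3k11, its close relative, rose by 0.27 ± 0.07 (adjusted p = 0.0174; up to 0.0835 without WT replicate 2, 4 or 5). In the Bcl2 family, which decides on cell death, Bik (0.33 ± 0.10, adjusted p = 0.0464) and Bak1 (0.23 ± 0.07, adjusted p = 0.0466) rose (10.5% of 19, against 2.32% of all features). Each was a call that ended without any 1 of 22 arrays (up to 0.13 and 0.137).

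Nr1d2, a repressor of the circadian clock, was the only 1 of 19 clock genes to pass (5.26%, against 4.27% of all features). It fell by 0.26 ± 0.06 (adjusted p = 0.00522), with 17 of 24 restricted samples below the WT range of 0.12 to 0.41. In the red channel alone and in the deposited series table it did not pass. Fkbp5, a target and brake of the glucocorticoid receptor, was the only 1 of 15 glucocorticoid genes to pass (6.67%, against 4.27% of all features). It rose by 0.29 ± 0.08 (adjusted p = 0.0302, and up to 0.0991 without any 1 of WT replicates 2 to 6). As the mean over its 3 probes the adjusted p was 0.0503. No antioxidant gene of 26 passed, with Nfe2l2 at -0.22 ± 0.09 (adjusted p = 0.207) and Prdx3 at 0.22 ± 0.10 (adjusted p = 0.237).

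The largest rise of a named gene past the threshold was that of Tmem204, a membrane protein of endothelial junctions (probe at chr10:14304582-14304641, rn4). It ranged from -0.79 to -0.24 (median -0.60) in WT and from -0.60 to 1.01 (median 0.12) in restricted samples and rose by 0.73 ± 0.17, or 1.66-fold (adjusted p = 0.00989). Zbtb10, a zinc finger repressor, fell by 0.60 ± 0.12 (adjusted p = 0.00282), and 23 of 24 restricted samples lay below the WT range of 0.16 to 0.80. Arih2, a ubiquitin ligase, fell by 0.50 ± 0.10 (adjusted p = 0.00351), although its second probe had a difference of 0.11 (adjusted p = 0.171) and the mean over both did not pass (-0.19, adjusted p = 0.064). Also higher were Zfp260 (0.45 ± 0.08), Adam1a (0.46 ± 0.09), Tmem33 (0.49 ± 0.10) and Rnf187 (0.46 ± 0.11), with adjusted p from 0.000785 to 0.0107, and these held with every array left out in turn. Asb2 (0.51 ± 0.13) and the hyaluronidase Hyal2 (0.48 ± 0.12) rose with adjusted p of 0.0215 and 0.0166. The Asb2 call ended without WT replicate 2, 3, 4 or 5 (up to 0.064) and that of Hyal2 without WT replicate 4 (0.0682). Of the 74 genes that the naming rule took past the threshold, 36 passed it with each array left out in turn.

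Complete separation of the groups was rare. In 12 of 22262 features, 0.0539%, every restricted sample lay beyond the WT range, 9 above and 3 below, and all 12 passed the threshold. Those with established symbols were named for this property after their values had been seen. They are Srsf9, Nudcd1 (0.37), Bahd1 (0.33), a chromatin silencing protein, Rin3 (0.41), Ncbp1 (0.22), the large subunit of the nuclear cap-binding complex, Mterf3 (0.21), a mitochondrial transcription regulator, and Cdip1 (0.18) above, and Cbll1 (-0.30) and Abt1 (-0.40) below. Gaps were small: the WT samples of Cdip1 ended at -0.07 and its restricted samples began at -0.03.

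The CR and CR-L groups were set against the same 7 WT arrays, so their differences share those controls. CR alone differed from WT in 138 features (0.62%) and CR-L alone in 911 (4.09%). Between CR-L and CR limma called 0 (0%), with 534 at an unadjusted p under 0.05 (2.40%) and a smallest adjusted p of 0.999. Of the 951 features that passed in the pooled comparison, 46 had such an unadjusted p (4.84%), a larger share than over all features. For 811 of the 951 features that passed in the pooled comparison (85.3%), the 95% interval of CR-L minus CR lay within 0.25 of 0, as it did for 82.8% of all features. That margin was about the median size of the called differences (0.25 and -0.25), so such an interval cannot show that the groups agree. Among the genes named, Traf6 differed from WT by -0.63 in CR and -0.71 in CR-L, Foxo1 by -0.48 and -0.52, Icam1 by -0.53 and -0.56, Hspa14 by 0.28 and 0.27, and Srsf9 by 0.29 and 0.29. For Nfkbiz the values were -0.66 and -0.77 and the interval of CR-L minus CR ran from -0.44 to 0.23, so a difference of that size between the groups could not be seen. Chd1 was 0.46 and 0.60, with an interval of 0.01 to 0.27 for CR-L minus CR, and Tnfaip3 -0.37 and -0.73, with an interval of -0.69 to -0.04; neither passed adjustment. The platelet marker list had medians of 0.47 in CR and -0.03 in CR-L.

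**Figure D4:**
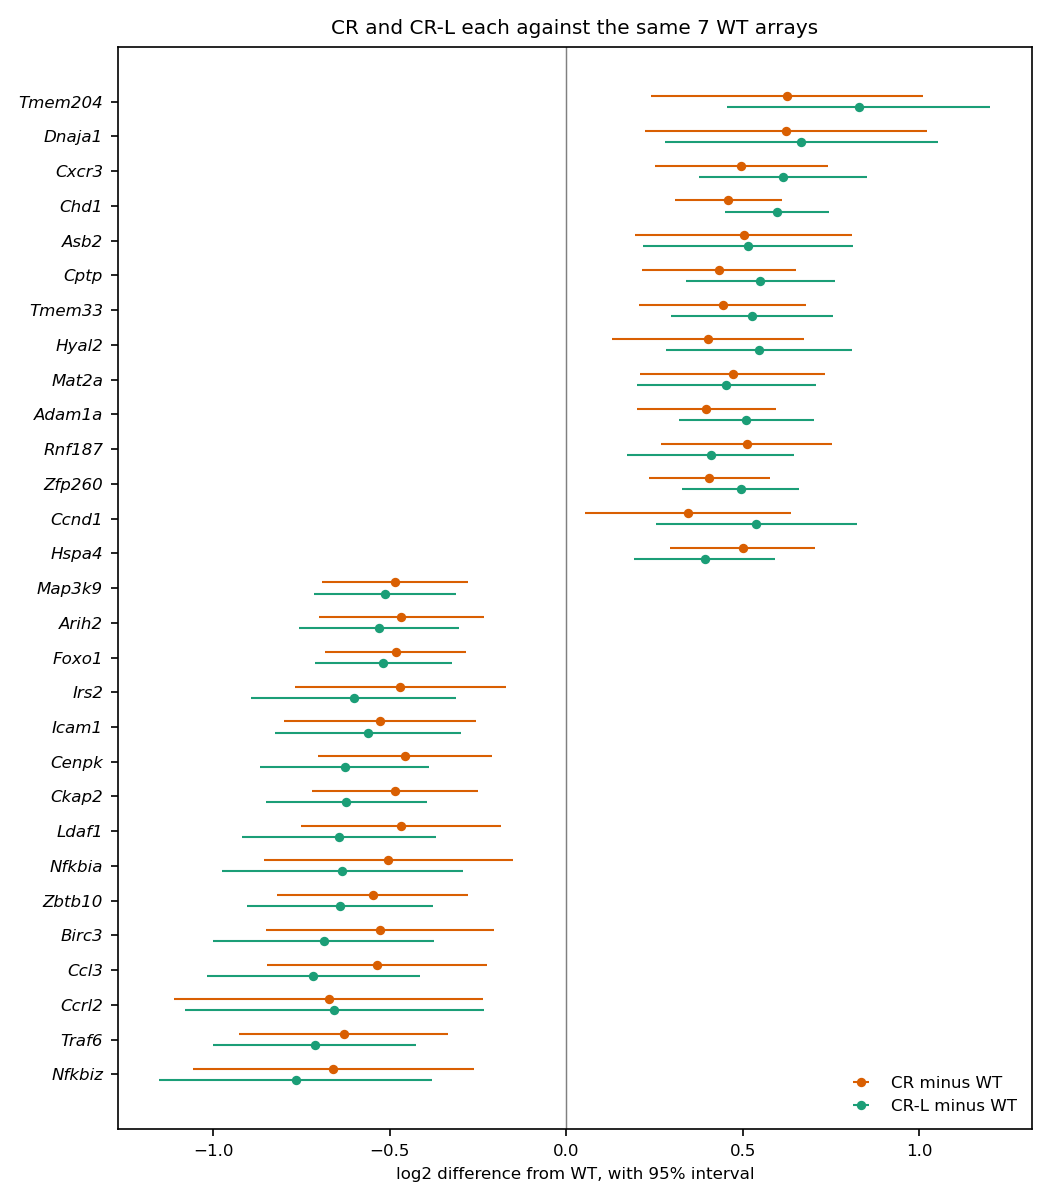
Log2 differences from WT (horizontal axis) of 29 genes with the largest rises and falls, in CR and in CR-L samples, with 95% intervals; both use the same 7 WT arrays. The points of the CR and CR-L samples lie on the same side of 0 for each gene shown, such as Traf6 at -0.63 and -0.71.

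The arrays lay on 8 slides, 7 of which held 1 WT array and 3 restricted arrays. Within each of these 7 slides the restricted mean was compared with its WT array. All 7 slides had the pooled direction for 709 of the 951 features (74.6%), against 8.39% of all features; the same arrays made both values. For Traf6 the slide differences ran from -1.001 to -0.31, for Chd1 from 0.23 to 0.81, for Map3k9 from -0.63 to -0.36, for Tmem204 from 0.63 to 1.24 and for Dnaja1 from 0.12 to 1.03. Hyal2, with -0.12 to 0.89, had 1 slide on the other side of 0. With slide as a fixed block 805 features passed, and 12 of the 74 genes taken by the naming rule did not: Nfkbia (-0.57, adjusted p = 0.0531), Ccrl2 (-0.65, adjusted p = 0.0847), Fabp5 (-0.46), Tnf (-0.20), Map3k11 (0.25), Ccnd1 (0.47), Bub1 (0.23), Bak1 (0.23), Slc27a4 (0.17), Dhcr7 (0.21), Psmb5 (0.12) and Tdg (0.13), with adjusted p from 0.0516 to 0.0889. Other settings ended calls too. With the blood cell marker means as covariates, 21 of the 74 did not pass: Ccrl2, Nfkbia, Fabp5, Abcg1, Tnf, Ikbkg, Ndufs6, Psmb5, Tdg, Mars1, Psme3, Slc27a4, Rbm10, Dhcr7, Cct3, Bak1, Fasn, Fkbp5, Bik, Dnajb1 and Dnaja1. In the red channel alone 27 did not, Bcl3, Tcp1, Dnajb1, Traf1, Ahcyl1 and Map3k11 among them, and 31 did not in the deposited series table, among them Ccrl2, Clk1, Fasn, Dnajb1, Traf1 and Ahcyl1.

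**Figure D5:**
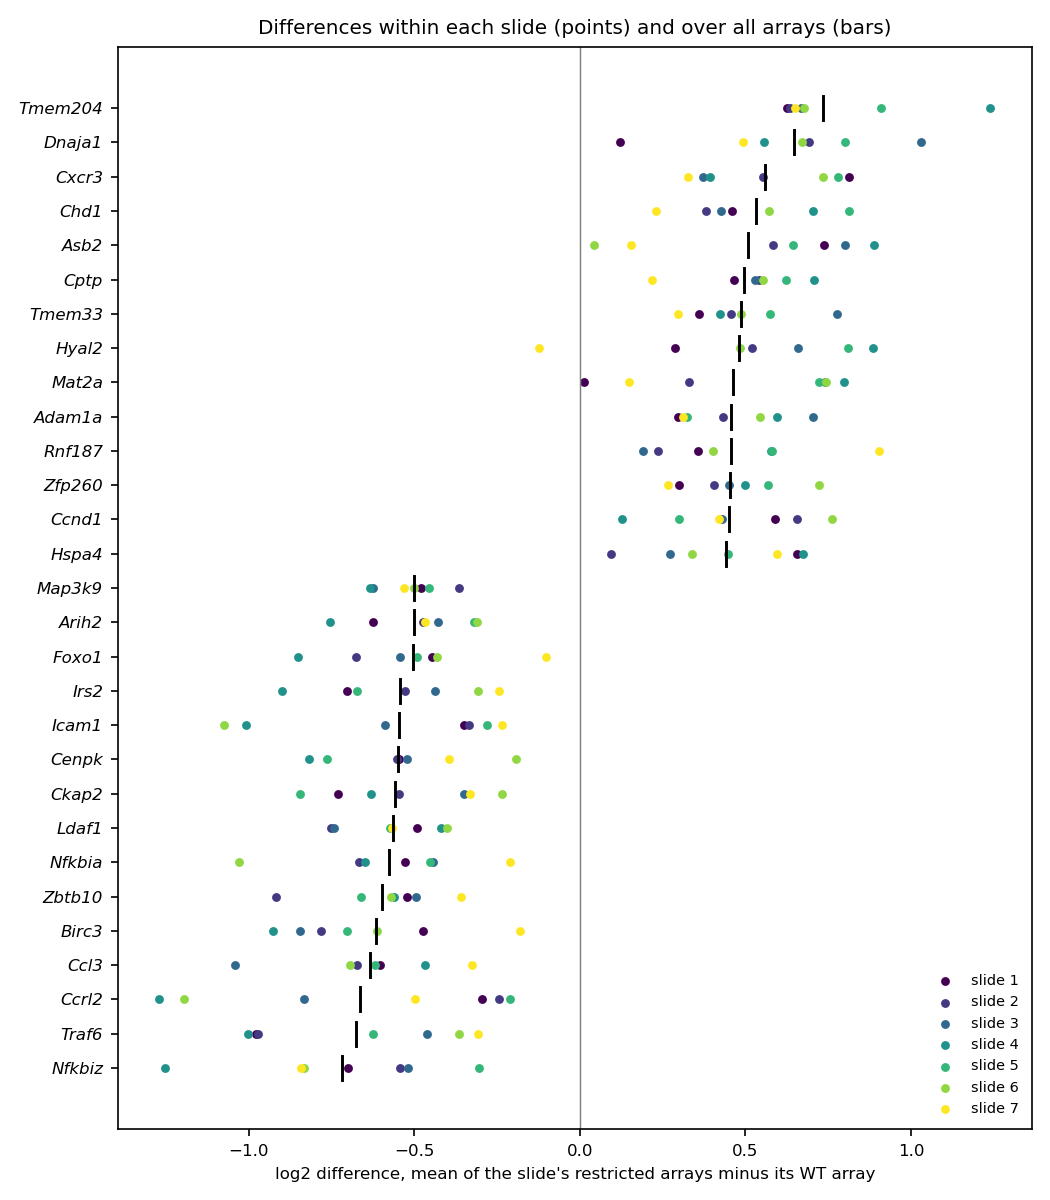
Difference of the restricted mean from the WT array within each of 7 slides (points, log2, horizontal axis) for 29 genes with the largest changes; short bars mark the difference over all arrays. Points of a gene lie on 1 side of 0 except for Hyal2, which has a slide at -0.12.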

How the data were processed

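RNA of PBMC was measured on 31 Agilent 2-colour arrays (WT 7, CR 11, CR-L 13). The authors deposited 1 scanner file per array with spot and local background intensity, read with Agilent Feature Extraction 10.7.3.1 per the submitters' processing notes, and its log10 ratio of red over green. Red held the sample and green the pool, with no dye swap, per the labels. The authors also deposited a table of log2 values, for which the processing is not given in the sources used here; it tracked log2 red intensity (lowest correlation 0.993), every column had a median of 8.17, and its further normalization is unknown.

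Intensities were corrected with limma 3.58.1 (R 4.3.3), using the normexp method (offset 50) followed by within-array loess. Local backgrounds that Feature Extraction marks as outliers were set to the array's median, because a few spots with local red background of up to 43713.5 had inflated the normexp background SD of WT replicate 1, CR replicate 11 and CR-L replicate 12 (to 548, 337 and 386). Of 45018 spots, 1639 control spots and the outlier values (0.408%) were left out; 26721 of 41012 probes had red well above background on at least 7 arrays. The brightest probe stood for a gene, which gave 22262 features, 0.0332% of values missing. Names came by accession (18971 probes), by accession in the description (218), by current (2995) or older symbol (203) in a GRCr8 table, or from the file (1009), and 17616 probes had none. Probe positions are the files', on rn4.

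The restricted and WT means were compared with lmFit and eBayes, two-sided, with Benjamini-Hochberg adjustment over all features and a threshold of 0.05; CR and CR-L came from a fit of 3 groups. The labels do not say that samples of a group come from separate litters. The median red intensity per array stands for depth, and precision is limited by how many arrays there are. The fit was tested on simulated data.

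The members and the 38 gene lists were chosen with earlier results of these data known. Named genes are the 15 largest changes in each direction among established symbols, up to 6 called members of each list by smallest p or else the 2 with the smallest p, and a set of genes of prior interest; some marker genes of this rule are given as ranges, and 1 gene it takes is not reported here. Other settings for background, normalization, channel, source, filter, probes, weights, blocks, blood cell markers and left-out arrays were run. Genes are described per probe, and levels were not compared between genes. The second probes of Abcg1, Ikbkg, Slc27a4, Dnajb1 and Ccnd1 had the sign of the first but did not pass (adjusted p from 0.0553 to 0.152). For each of these genes the mean over both probes passed (adjusted p from 0.0230 to 0.0463).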

Additional observations from a re-analysis of the deposited data

Results flagged for a closer look

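Of 115 sets of WT values examined, 12 had 1 array far from the other 6, and chance alone gives about 1 in 20. Dnaja1 was 0.0368 on WT replicate 1, against -0.913 to -0.724 on the others. The B cell marker mean of the same array was -0.729 (others 0.0541 to 0.278), its Fcer2 value -0.709 (others -0.0256 to 0.286) and its Fkbp5 value 0.307 (others -0.332 to -0.0979). WT replicate 6 had a median red intensity of 235 (others 77 to 88.8), 83.6% of red spots well above background (others 59.1 to 65) and an Insr log2 ratio of -0.505 (others 0.0114 to 0.208).

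Zbtb10 was 0.804 on WT replicate 2 (others 0.157 to 0.43), Ngp 1.17 on WT replicate 3 (others -0.516 to 0.0623) and Cpt1a -0.628 on WT replicate 5 (others -0.105 to 0.182). On WT replicate 7, Bak1 was 0.248 (others -0.331 to -0.121) and Asb2 0.0146 (others -0.671 to -0.414).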

How the results depend on the processing

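The count of 951 features was 504 in the deposited series table, where fewer features (20652) were tested, and from 486 to 1106 with each array left out in turn. Under the other 13 planned settings it was 749 (no filter on dim probes, 34889 features tested) to 1416 (array quality weights), within 1.5 times of 951. Agilent's own log ratio gave 875, no background subtraction 1015, the red channel alone 750 and the mean over probes 836. Alternatives chosen after seeing the data gave 816 (local background as read), 967 (slide as a random block, within-slide correlation 0.00889) and 685 (without WT replicate 6 and CR-L replicate 5). In different groups, 25 pairs of arrays share a replicate number. Their deviations from group means correlated at a median of 0.030 (-0.416 to 0.444, 9 over 0.1). Such correlations cannot exclude that the numbers pair some samples, and the main comparison did not pair them. With the replicate block 1073 passed, 542 higher and 531 lower.

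Of the 74 genes the naming rule took past the threshold, 28 passed it under all 48 alternatives; 27 were lost in the red channel alone, 31 in the deposited values and 21 with the covariates. No gene past the threshold changed sign except Tdg, at -0.051 as the mean over probes. Genes near 0 did: Insr was 0.037 in the red channel, 0.0049 with slide as a fixed block, 0.039 with the replicate block, 0.021 with the covariates, and above 0 without WT replicate 2, 3, 4 or 7 (-0.103 to 0.016 over all arrays left out). Srebf1 was 0.015 in the series table, 0.0043 with slide as a fixed block, 0.0057 with local background as read, and above 0 without WT replicate 2, 5 or 7 or CR-L replicate 1 (-0.038 to 0.032). Slc27a2 was 0.55 with the covariates, 0.0097 without WT replicate 6 and CR-L replicate 5 and -0.74 to 0.0094 over the arrays left out (above 0 without WT replicate 7); Cpt1a was -0.020 to 0.115 (below 0 without WT replicate 5). The causes were not tested. Probes near background carry fewer calls: the counts rest on red well above background on at least 7 arrays.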
